A study of Homo sapiens with 4 samples.

Results

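Rab GTPases are small switch proteins of the Ras superfamily that give each membrane compartment its identity and recruit the motors, tethers and fusion factors that move vesicles. Exchange factors load them with GTP, GTPase-activating proteins (GAPs) switch them off, and effectors bind the loaded form. In pigment cells, RAB32 and RAB38 route melanin enzymes to the melanosome, the pigment organelle, and RAB27A ties the mature melanosome to the actin motor myosin Va. The genes described here were chosen by symbol: every RAB symbol followed by a digit, with 1 gene not reported here, and every symbol starting TBC1D, RABGAP, RABEP, RAB11FIP or DENND. They are 100 of the 11650 genes in each file, and comprise 48 Rab GTPases, 12 exchange factors, 29 genes of the TBC-domain GAP class, both subunits of Rab3GAP, 8 effectors and RAB5IF, a gene caught by its name that encodes a small membrane protein and not a GTPase. A further 38 protein-coding genes with such symbols, among them RAB27B, RAB25 and RAB3B, have no value here and were not analysed.

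RNA of the established uveal melanoma line 92.1, a pigment cell tumour of the eye, was sequenced in 2 libraries of resistant cells (Res) and 2 libraries of parental cells (Ctrl). The labels do not name the agent that the Res cells resist, how long they were exposed or whether they are 1 clone or a pool. The cell line field of the labels climbs by 1 with each sample, whereas every title says 92.1, and the titles were followed. The labels do not state if libraries sharing a group were grown as separate cultures. The p-values below therefore cover the spread among these 4 libraries alone, and that spread may be technical.

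Values are FPKM, fragments scaled to transcript length and to library size, as deposited. Read depth is unknown. Mitochondrially encoded genes made up 40.2% and 40.6% of the summed FPKM in Res, against 37.2% and 37.9% in Ctrl. The part of this difference in the results below was not tested. The 10 melanocyte lineage markers all had values and summed to 3080 and 2336 FPKM in the Res libraries, against 2696 and 2406 FPKM in the Ctrl libraries, a sum carried mostly by TYRP1. Of the 10, 1 stood higher and 5 lower without overlap, beside 19.1% and 31.8% of all genes tested. Their median log2 fold change was -0.38, beside -0.08 over all genes tested. DCT, a melanin enzyme, stood at 0.486 and 0.517 FPKM in Res, against 4.88 and 5.46 FPKM in Ctrl (log2 fold change -2.04 ± 0.17 SE, limma adjusted p = 0.0544). SOX10, OCA2 and GPR143 also stood lower without overlap, at log2 fold changes of -0.58, -0.68 and -0.35. TYRP1 stood higher without overlap, at 2143 and 1514 FPKM in Res, against 1490 and 1484 FPKM in Ctrl. Its log2 fold change was 0.28 ± 0.18 SE, and the rise lay mainly in Res replicate 1. The groups of TYR (0.28), MLANA (-0.04), SLC45A2 (-0.09) and PMEL (-0.41) overlapped. MITF, the lineage transcription factor, stood at 9.64 and 31.8 FPKM in Res, against 35.3 and 37.4 FPKM in Ctrl. Epithelial markers had values for 4 of 9 genes, and their sum was 9.96 and 19.6 FPKM in Res, against 3.23 and 4.05 FPKM in Ctrl. Fibroblast markers had values for 4 of 10 genes, with sums of 14.4 and 10.6 FPKM in Res, against 5.94 and 6.90 FPKM in Ctrl. Leukocyte markers had values for 2 of 8 genes, CD68 and LCP1, with sums of 13.2 and 10.7 FPKM in Res, against 32.6 and 27.4 FPKM in Ctrl. The part of these markers in the results below was not tested. In bulk RNA, fewer cells of a type and less RNA per cell cannot be told apart.

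Among the Rab genes and their regulators, none passed the threshold between Res and Ctrl. The test was limma on log2(FPKM + 1), run on genes averaging 1 FPKM or more across the 4 libraries, and p-values were adjusted over all 10271 genes tested by the Benjamini-Hochberg method. Of the 100 genes 88 were tested and 12 lay below the minimum. Higher in Res, 0 of the 88 had a limma adjusted p under 0.05, where 0.0487% of all genes did, and lower in Res also 0 of the 88, where 0.00974% of all genes did. In either direction that share was 0.0584% of all genes, and the smallest limma adjusted p among them was 0.122. At an unadjusted limma p under 0.05, 5 of the 88 stood higher in Res, beside 6.06% of all genes, and 12 stood lower, beside 10.2% of all genes. Without Ctrl replicate 1 these counts were 2 and 4, beside 3.53% and 3.27% of all genes. Without Ctrl replicate 2 they were 2 and 7, beside 3.23% and 4.51%, and without Res replicate 1 they were 7 and 22, beside 10.8% and 24.6%. With median-of-ratios scaling they were 7 higher and 8 lower, beside 8.93% and 8.57%.

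Groups of 2 libraries can also be read by whether they overlap. Both Res values lay above both Ctrl values for 15 of the 88 genes (17.05%), beside 19.1% of all genes tested. Both Res values lay below both Ctrl values for 33 of the 88 (37.5%), beside 31.8% of all genes tested. The median log2 fold change, Res minus Ctrl, was -0.17 over the 88 genes and -0.08 over all genes tested. It was -0.27 over the 88 without Res replicate 1 and -0.05 without Res replicate 2. The fold change was below 0 for 65 of the 88 (73.9%), beside 58.6% of all genes tested.

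The 3 Rabs of melanosome transport took 3 courses. RAB32 stood about 2-fold higher in Res, RAB27A lower, and RAB38, the most abundant gene of the family in this line, had overlapping groups. Their summed level was 445 and 344 FPKM in Res, against 329 and 268 FPKM in Ctrl.

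RAB32 (ENSG00000118508.4_2, chromosome 6 from 146543693 to 146554965, plus strand, GENCODE 29 on GRCh38) had 129 and 145 FPKM in Res, against 73.7 and 59.2 FPKM in Ctrl. Both Res values lay above both Ctrl values, and the ratio of the means was 2.06. The log2 fold change was 1.04 ± 0.17 SE (limma adjusted p = 0.122, n = 2 each). Under the alternatives tried it ran from 0.89 to 1.20, with limma adjusted p from 0.0654 to 0.416.

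RAB38 (ENSG00000123892.11_3, chromosome 11 from 88113242 to 88175467, minus strand), a close relative of RAB32 whose loss lightens the coat of mice, had 313 and 196 FPKM in Res, against 251 and 204 FPKM in Ctrl. The Res values enclosed the Ctrl values. Its log2 fold change was 0.13 ± 0.26 SE (limma adjusted p = 0.825, n = 2 each), and without Res replicate 1 it was -0.20. RAB32 made up 29.2% and 42.5% of the summed FPKM of RAB32 and RAB38 in Res, against 22.7% and 22.5% in Ctrl.

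RAB27A (ENSG00000069974.15_3, chromosome 15 from 55202966 to 55319113, minus strand), the Rab whose loss causes a human syndrome of pale hair and immune defects, had 2.95 and 2.45 FPKM in Res, against 4.27 and 4.87 FPKM in Ctrl. Both Res values lay below both Ctrl values. The log2 fold change was -0.59 ± 0.19 SE (limma adjusted p = 0.254, n = 2 each). The gene overlaps PIGB on the opposite strand and PIGBOS1 on its own strand, and no source used here states if strand was used in counting, which also bears on RAB6B (SRPRB) and RABEP1 (NUP88). RAB8A overlaps HSH2D and TBC1D1 overlaps PTTG2 on the same strand. RAB27A was the least abundant of the 3 in every library.

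**Figure D1:**
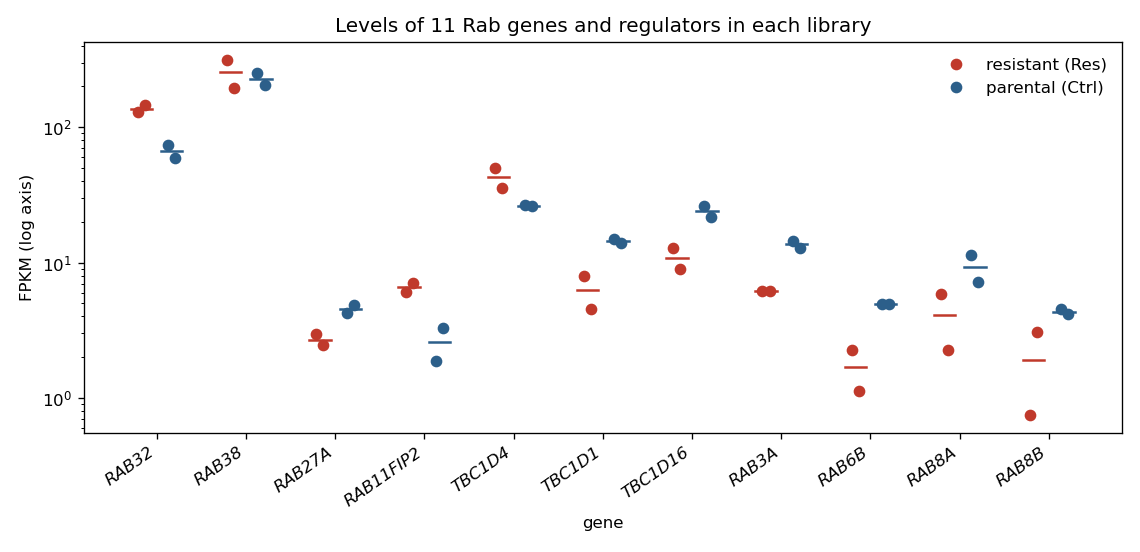
FPKM on a log axis for 11 Rab genes and regulators, with 1 point per library and a line at the mean of the 2 libraries of a group, Res left of Ctrl. RAB32, RAB11FIP2 and TBC1D4 lie higher in both Res libraries, RAB38 overlaps, and the other 7 lie lower in both Res libraries.

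The sequence upstream of RAB32 and RAB27A is shown. The promoter sequences used held no entry for RAB38, so none is shown for it. Each run ends at the first base before the gene in RefSeq (GRCh38.p14) or GENCODE 29, whichever lies farther upstream, and capitals mark CpG dinucleotides, the sites of promoter methylation. RAB32 is shown over 110 bases, chr6:146543583-146543692 on the plus strand. RAB27A is shown at its most upstream RefSeq start over 250 bases, chr15:55319124-55319373 on the minus strand.
RAB32: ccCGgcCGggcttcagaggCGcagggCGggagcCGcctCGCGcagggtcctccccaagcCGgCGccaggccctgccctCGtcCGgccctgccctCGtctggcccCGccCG
RAB27A: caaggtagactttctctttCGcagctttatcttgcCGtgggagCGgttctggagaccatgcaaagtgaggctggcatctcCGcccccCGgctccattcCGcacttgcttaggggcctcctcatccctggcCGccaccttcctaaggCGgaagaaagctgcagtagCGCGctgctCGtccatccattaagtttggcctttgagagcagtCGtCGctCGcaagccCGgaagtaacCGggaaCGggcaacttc
The RAB32 run holds 14 CpG dinucleotides at 81.8% G and C, and the RAB27A run holds 17 at 58.8%. The E-box letters CACGTG and CATGTG, searched on both strands because MITF is known to bind such sites, occur in neither run. RAB27A has 5 annotated starts, and the result is given for the most upstream alone. Bases outside the runs shown are not described. CACGTG occurs in 2.08% of all 35116 RefSeq promoter windows of 110 bases and in 6.35% of those of 250 bases, and CATGTG in 3.98% and 9.42%.

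Partners of the melanosome Rabs were read from a list of 30 genes, of which 22 were tested. None passed the limma threshold, where 0.0584% of all genes did. At an unadjusted limma p under 0.05, 1 of the 22 stood higher and 1 lower, beside 6.06% and 10.2% of all genes. These were SYTL2, a synaptotagmin-like effector of RAB27A, which stood higher, and DTNBP1, which stood lower. SYTL2 had 2.80 and 1.36 FPKM in Res, against 0.897 and 0.855 FPKM in Ctrl (log2 fold change 0.68 ± 0.26 SE, limma adjusted p = 0.305), with a log2 fold change of 0.33 without Res replicate 1 and 1.02 without Res replicate 2. DTNBP1, the dysbindin subunit of the BLOC-1 complex that sorts melanosome cargo, had 5.41 and 5.95 FPKM in Res, against 8.996 and 8.14 FPKM in Ctrl (log2 fold change -0.52 ± 0.18 SE, limma adjusted p = 0.276). The groups of both genes were separate, as were those of the most abundant gene of the list, the AP-3 adaptor subunit AP3S1, at 31.5 and 28.4 FPKM in Res, against 25.5 and 25.9 FPKM in Ctrl.

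MLPH, the melanophilin bridge between RAB27A and myosin Va, had 7.21 and 6.31 FPKM in Res, against 5.85 and 5.35 FPKM in Ctrl. MYO5A, the myosin Va heavy chain, had 8.19 and 2.73 FPKM in Res, against 8.77 and 8.69 FPKM in Ctrl, so its lower Res mean came mainly from Res replicate 2, without which its log2 fold change was -0.08 in place of -0.73. Over the 22 genes the median log2 fold change was 0.07, with 8 higher and 5 lower without overlap, beside 19.1% and 31.8% of all genes. The exchange complex of RAB32 and RAB38 is made of HPS1 and HPS4. HPS1 had 13.3 and 11.4 FPKM in Res, against 14.6 and 12.6 FPKM in Ctrl, and HPS4 had 8.73 and 8.16 FPKM in Res, against 8.80 and 11.1 FPKM in Ctrl.

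Of the Rabs of regulated secretion 2 were tested, and both lay lower in Res without overlap, where 31.8% of all genes did. RAB3A, which primes synaptic and hormone vesicles, had 6.13 and 6.18 FPKM in Res, against 14.5 and 12.8 FPKM in Ctrl. The Res values lay well below both Ctrl values, at a ratio of means of 0.450 and a log2 fold change of -1.03 ± 0.17 SE (limma adjusted p = 0.122, n = 2 each). Its relative RAB3D, of secretory granules, had 9.31 and 9.76 FPKM in Res, against 12.6 FPKM in each Ctrl library (log2 fold change -0.37 ± 0.17 SE, limma adjusted p = 0.351). RAB26, a Rab of secretory granules below the minimum for testing, had 0.342 and 0.611 FPKM in Res, against 2.29 and 0.677 FPKM in Ctrl. Both Rab3GAP subunits act as a GAP on RAB3 and as an exchange factor on RAB18. RAB3GAP2 had 10.8 and 10.7 FPKM in Res, against 7.90 and 9.19 FPKM in Ctrl, and RAB3GAP1 had 4.93 and 1.86 FPKM in Res, against 3.47 and 3.60 FPKM in Ctrl. RAB3A overlaps MPV17L2 on the opposite strand.

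Of the 8 tested Rabs of recycling and surface delivery, 2 stood higher and 3 lower without overlap, beside 19.1% and 31.8% of all genes. RAB8A, which carries cargo from the Golgi and recycling endosomes to the surface and the cilium, had 5.88 and 2.27 FPKM in Res, against 11.3 and 7.13 FPKM in Ctrl (log2 fold change -1.08 ± 0.42 SE, limma adjusted p = 0.305). RAB8B, its close relative, had 0.746 and 3.07 FPKM in Res, against 4.53 and 4.18 FPKM in Ctrl (log2 fold change -1.004 ± 0.41 SE, limma adjusted p = 0.321). The lower Res value of RAB8A was in replicate 2 and that of RAB8B in replicate 1, so the spread within Res was wide for each. Without those libraries the log2 fold change was -0.54 for RAB8A and -0.39 for RAB8B. Their sum was 6.62 and 5.34 FPKM in Res, against 15.9 and 11.3 FPKM in Ctrl, with separate groups.

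RAB35, of fast endosomal recycling, had 3.29 and 3.61 FPKM in Res, against 4.88 and 5.37 FPKM in Ctrl (log2 fold change -0.46 ± 0.18 SE, limma adjusted p = 0.305). RAB11B, of the recycling endosome, had 25.4 and 26.2 FPKM in Res, against 21.2 and 18.1 FPKM in Ctrl (log2 fold change 0.38 ± 0.17 SE, limma adjusted p = 0.344). Its partner RAB11A had 11.3 and 15.8 FPKM in Res, against 10.8 and 16.2 FPKM in Ctrl, with overlapping groups. RAB10, which brings glucose transporter vesicles to the surface, had 44.7 and 39.5 FPKM in Res, against 36.9 and 33.7 FPKM in Ctrl (log2 fold change 0.25 ± 0.16 SE, limma adjusted p = 0.489). RAB13 and RAB14 stood at 28.4 to 80.5 FPKM in Res and at 31.0 to 78.1 FPKM in Ctrl, with overlapping groups for each.

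Among the endosomal Rabs the largest differences came with the widest spread. RAB5C, of early endosomes, had 23.3 and 12.3 FPKM in Res, against 57.7 and 17.7 FPKM in Ctrl, and the groups overlapped. RAB5A had 10.7 and 1.88 FPKM in Res, against 10.1 and 7.55 FPKM in Ctrl, low in Res replicate 2 alone. The log2 fold change was -0.89 ± 0.59 SE for RAB5C (limma adjusted p = 0.498) and -0.74 ± 0.66 SE for RAB5A (limma adjusted p = 0.604). The remaining early endosomal Rabs tested, RAB4A, RAB4B, RAB5B and RAB21, had log2 fold changes from -0.35 to 0.18. RAB22A, of early endosomal sorting, had 5.39 and 4.29 FPKM in Res, against 3.73 and 3.77 FPKM in Ctrl (log2 fold change 0.29 ± 0.19 SE, limma adjusted p = 0.492), and without Res replicate 1 its log2 fold change was 0.16.

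The late endosomal Rabs showed small differences. RAB7A, which directs late endosomes and melanosomes towards lysosomes and the cell centre, had 189 and 170 FPKM in Res, against 174 and 169 FPKM in Ctrl. Its log2 fold change was 0.06 ± 0.14 SE (limma adjusted p = 0.845, n = 2 each). RAB9A, of retrieval to the Golgi and of melanosome biogenesis, had 12.2 and 15.0 FPKM in Res, against 12.9 and 13.8 FPKM in Ctrl. The groups of each gene overlapped, as did those of RAB9B.

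Of the 11 tested Rabs of the endoplasmic reticulum and Golgi, 1 stood higher and 6 lower without overlap, beside 19.1% and 31.8% of all genes. RAB6B, a form of the Golgi Rab RAB6 best known from neurons, had 2.26 and 1.13 FPKM in Res, against 4.93 and 4.98 FPKM in Ctrl (log2 fold change -1.17 ± 0.25 SE, limma adjusted p = 0.162). The widely expressed RAB6A had 21.4 and 20.7 FPKM in Res, against 26.1 and 22.3 FPKM in Ctrl (log2 fold change -0.19 ± 0.17 SE, limma adjusted p = 0.608). RAB6B thus made up a small share of RAB6 transcripts in every library. RAB18, of the endoplasmic reticulum and lipid droplets, had 5.19 and 8.91 FPKM in Res, against 3.81 and 3.76 FPKM in Ctrl (log2 fold change 0.71 ± 0.27 SE, limma adjusted p = 0.300). Both Res values of RAB18 were higher, and without Res replicate 2, the farther from Ctrl, the log2 fold change was 0.37. The abundant RAB1A, RAB1B and RAB2A, of traffic between these compartments, had log2 fold changes from -0.22 to -0.17. RAB2B, RAB29, RAB30, RAB33B and RAB43 had values from -0.43 to 0.28.

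Among 9 tested Rabs of other sites, 1 stood higher and 3 lower without overlap, beside 19.1% and 31.8% of all genes. RAB28, a ciliary Rab of photoreceptors, had 4.23 and 6.26 FPKM in Res, against 9.10 and 9.89 FPKM in Ctrl (log2 fold change -0.77 ± 0.23 SE, limma adjusted p = 0.228), and its level is uncertain if reads from its 5 named pseudogenes were counted to it, which was not tested. RAB9A also has 5 named pseudogenes, and RAB1A, RAB5C and RAB11A have 2 each. RAB17, of polarized recycling, had 1.78 and 1.49 FPKM in Res, against 3.20 FPKM in each Ctrl library (log2 fold change -0.67 ± 0.17 SE, limma adjusted p = 0.196). RAB34, of lysosome positioning and cilium formation, had 10.3 and 10.95 FPKM in Res, against 7.45 FPKM in each Ctrl library (log2 fold change 0.46 ± 0.17 SE, limma adjusted p = 0.287). RAB23, a Rab that tempers Hedgehog signalling, had 8.60 and 2.65 FPKM in Res, against 8.50 and 8.97 FPKM in Ctrl, and its groups overlapped. RAB12, RAB15, RAB20, RAB24 and RAB40C had log2 fold changes from -0.39 to -0.03. Below the minimum for testing, RAB36, RAB39A, RAB40B and RAB6D, the last a near-identical copy of other RAB6 genes, had 0.307 to 1.04 FPKM in Res and 0.628 to 0.969 FPKM in Ctrl.

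**Figure D2:**
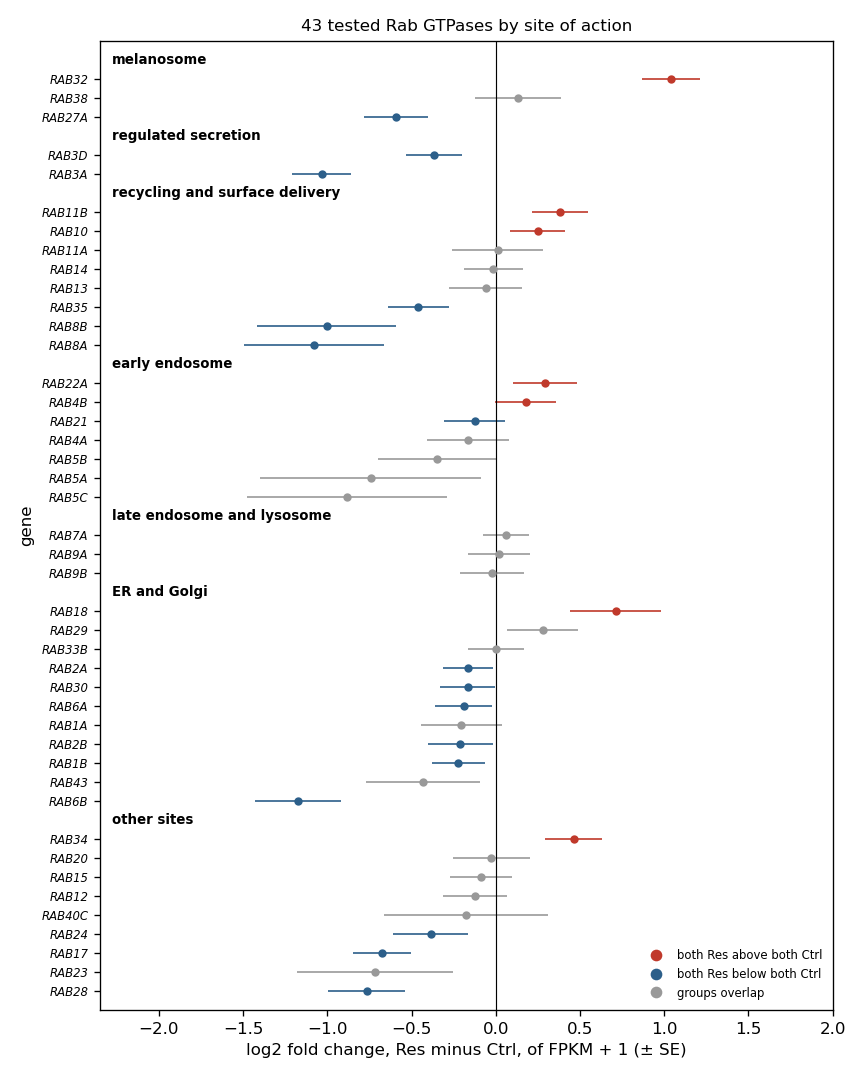
Log2 fold change, Res minus Ctrl, of FPKM + 1 with its standard error from limma for the 43 tested Rab GTPases, grouped by site of action and coloured by whether the 2 Res and 2 Ctrl values overlap. RAB32 lies at 1.04 and RAB6B at -1.17, and the late endosomal Rabs lie near 0.

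Of 11 exchange factors tested, 2 stood higher and 5 lower without overlap, beside 19.1% and 31.8% of all genes. Their median log2 fold change was -0.21. None had an unadjusted limma p under 0.05, where 6.06% of all genes did higher in Res and 10.2% lower. DENND4C, an exchange factor of RAB10, had 1.84 and 0.912 FPKM in Res, against 0.753 and 0.803 FPKM in Ctrl (log2 fold change 0.39 ± 0.23 SE, limma adjusted p = 0.449), and without Res replicate 1 its log2 fold change was 0.11. DENND11 had 3.52 FPKM in Res replicate 1 and was listed at 0 in Res replicate 2, against 3.27 and 2.82 FPKM in Ctrl (log2 fold change -0.93 ± 0.69 SE, limma adjusted p = 0.541), and a listed 0 may be a failed estimate. The most abundant exchange factors, RAB3IL1 and DENND10, had log2 fold changes of -0.24 ± 0.24 SE and -0.06 ± 0.18 SE. DENND1A, DENND1B, DENND2B, DENND4B, DENND5A, DENND5B and DENND6A had log2 fold changes from -0.33 to 0.20, and DENND4A lay below the minimum for testing. From a list of exchange factors outside the DENND name, 35 genes were tested. Of these, 4 stood higher and 13 lower without overlap, beside 19.1% and 31.8% of all genes. Their median log2 fold change was -0.14, beside -0.08 over all genes. TRAPPC5, a core subunit of the TRAPP exchange complexes, had 2.35 and 2.43 FPKM in Res, against 1.28 and 1.20 FPKM in Ctrl (log2 fold change 0.60 ± 0.16 SE, limma adjusted p = 0.208). The most abundant of them, TRAPPC1, had 69.0 and 45.4 FPKM in Res, against 42.3 and 33.9 FPKM in Ctrl (log2 fold change 0.55 ± 0.25 SE, limma adjusted p = 0.351), and without Res replicate 1 its log2 fold change was 0.26. AVL9, whose log2 fold change of 0.95 ± 0.51 SE was the largest, had 4.05 and 0.702 FPKM in Res, against 0.479 and 0.564 FPKM in Ctrl, and without Res replicate 1 its log2 fold change was 0.16. TRAPPC11, a subunit of TRAPPIII, had 4.15 and 3.49 FPKM in Res, against 5.61 and 6.26 FPKM in Ctrl (log2 fold change -0.53 ± 0.19 SE, limma adjusted p = 0.282).

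TBC-domain proteins held the regulators that stood lowest in Res. TBC1D1 and TBC1D4 are a pair of related GAPs that restrain glucose transporter vesicles through RAB10 and its relatives, and they stood on opposite sides. TBC1D1 had 7.99 and 4.52 FPKM in Res, against 14.8 and 13.9 FPKM in Ctrl (log2 fold change -1.12 ± 0.27 SE, limma adjusted p = 0.185). TBC1D4 had 50.1 and 35.4 FPKM in Res, against 26.4 and 26.1 FPKM in Ctrl (log2 fold change 0.66 ± 0.21 SE, limma adjusted p = 0.255), and without Res replicate 1 its log2 fold change was 0.42. TBC1D1 made up 13.7% and 11.3% of their summed FPKM in Res, against 35.9% and 34.8% in Ctrl.

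TBC1D16, a GAP known to act on RAB4 and RAB5C and studied in melanoma, had 12.8 and 8.98 FPKM in Res, against 26.4 and 21.9 FPKM in Ctrl (log2 fold change -1.09 ± 0.23 SE, limma adjusted p = 0.158). TBC1D14, which binds RAB11 and regulates autophagosome formation, had 11.03 and 7.57 FPKM in Res, against 16.6 and 16.2 FPKM in Ctrl (log2 fold change -0.78 ± 0.22 SE, limma adjusted p = 0.220). Both genes had separate groups. TBC1D23, an adaptor at the trans-Golgi that lacks GAP activity, had 2.57 and 3.60 FPKM in Res, against 4.57 and 5.69 FPKM in Ctrl (log2 fold change -0.59 ± 0.22 SE, limma adjusted p = 0.294).

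Of the other TBC-domain genes, TBC1D8B and TBC1D12 stood higher without overlap, at log2 fold changes of 0.32 ± 0.15 SE and 0.32 ± 0.18 SE. TBC1D7, the abundant TBC-domain subunit of the TSC complex that restrains mTORC1, had 31.8 and 30.6 FPKM in Res, against 29.1 and 34.0 FPKM in Ctrl. TBC1D15 and TBC1D5, which act on RAB7, had log2 fold changes of -0.07 ± 0.24 SE and -0.04 ± 0.17 SE. The other 15 tested genes of the class, RABGAP1 and RABGAP1L among them, had log2 fold changes from -0.34 to 0.11. Over the 25 tested genes, 3 stood higher and 9 lower without overlap, beside 19.1% and 31.8% of all genes, and the median log2 fold change was -0.17. TBC1D2, TBC1D2B and TBC1D8 lay below the minimum for testing. TBC1D3H, also below it, was listed at 0 in both Res libraries, against 0.652 and 0.428 FPKM in Ctrl, and as a member of a cluster of near-identical copies its level is uncertain. Among 6 tested GAPs without the TBC1D name, 3 stood higher and 1 lower without overlap, beside 19.1% and 31.8% of all genes. EVI5 had 4.51 and 5.43 FPKM in Res, against 3.85 and 4.05 FPKM in Ctrl, and GRTP1 had 3.46 and 2.86 FPKM in Res, against 5.43 and 4.23 FPKM in Ctrl. TBCK, a TBC-domain protein with an inactive kinase domain, had 1.94 and 1.57 FPKM in Res, against 0.906 and 0.992 FPKM in Ctrl (log2 fold change 0.50 ± 0.17 SE, limma adjusted p = 0.265).

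Effectors of RAB11 also stood on opposite sides. RAB11FIP2, which links RAB11 to myosin Vb on recycling vesicles, had 6.04 and 7.08 FPKM in Res, against 1.87 and 3.29 FPKM in Ctrl. Both Res values were higher, at a ratio of means of 2.54 and a log2 fold change of 1.10 ± 0.26 SE (limma adjusted p = 0.175, n = 2 each). RAB11FIP1, the Rab coupling protein that recycles integrins and receptors, had 4.40 and 4.31 FPKM in Res, against 7.28 and 6.68 FPKM in Ctrl (log2 fold change -0.57 ± 0.18 SE, limma adjusted p = 0.239). RAB11FIP3 and RAB11FIP5 had overlapping groups at 1.54 to 2.30 FPKM in Res and 1.92 to 2.53 FPKM in Ctrl, and RAB11FIP4 lay below the minimum for testing.

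RABEP1, the rabaptin that bridges RAB4 and RAB5, had 8.56 and 7.50 FPKM in Res, against 11.03 and 11.3 FPKM in Ctrl (log2 fold change -0.43 ± 0.18 SE, limma adjusted p = 0.318). RABEP2, its relative below the minimum, had 1.17 and 1.34 FPKM in Res, against 0.710 and 0.584 FPKM in Ctrl. RABEPK, a RAB9 effector, had 10.4 FPKM in each Res library, against 12.4 FPKM in each Ctrl library (log2 fold change -0.23 ± 0.16 SE, limma adjusted p = 0.524). RAB5IF had 62.8 and 80.3 FPKM in Res, against 58.7 and 42.2 FPKM in Ctrl (log2 fold change 0.50 ± 0.23 SE, limma adjusted p = 0.351), and the log2 fold change was 0.33 without Res replicate 2 and 0.27 without Ctrl replicate 2.

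**Figure D3:**
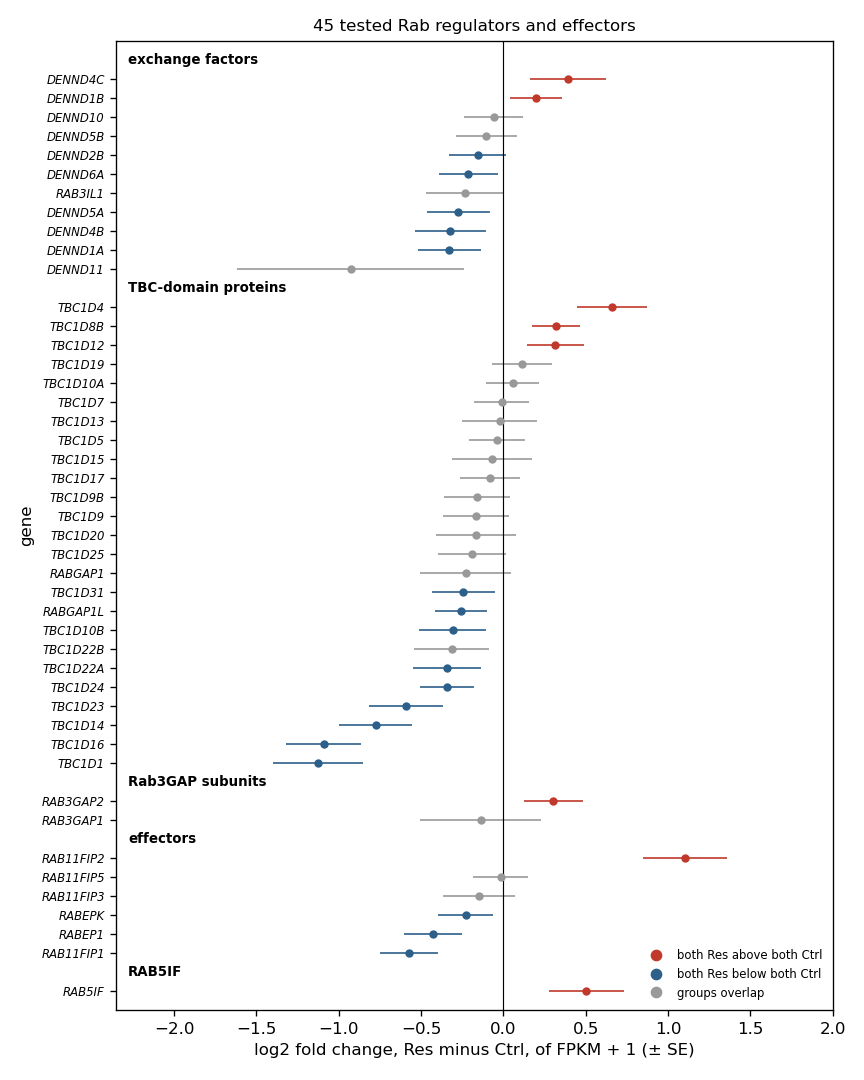
Log2 fold change, Res minus Ctrl, of FPKM + 1 with its standard error from limma for the 45 tested regulators and effectors, grouped by role and coloured by whether the 2 Res and 2 Ctrl values overlap. RAB11FIP2 lies at 1.10 and TBC1D4 at 0.66, while TBC1D1 and TBC1D16 lie at -1.12 and -1.09.

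Genes that serve all Rabs were read from a list of prenylation, escort and membrane release. Of its 15 genes, all tested, 7 stood higher and 2 lower without overlap, beside 19.1% and 31.8% of all genes, with a median log2 fold change of 0.17 beside -0.08 over all genes. RABAC1, a receptor that helps deliver prenylated Rabs to membranes, had 23.8 and 29.1 FPKM in Res, against 16.4 and 16.0 FPKM in Ctrl (log2 fold change 0.67 ± 0.18 SE, limma adjusted p = 0.205). GDI2, which extracts Rabs bound to GDP from membranes, had 46.6 and 38.8 FPKM in Res, against 47.9 and 54.3 FPKM in Ctrl (log2 fold change -0.26 ± 0.17 SE, limma adjusted p = 0.5004). CHML, a Rab escort protein, had 16.9 and 17.2 FPKM in Res, against 11.6 and 13.1 FPKM in Ctrl (log2 fold change 0.44 ± 0.17 SE, limma adjusted p = 0.305). ARL6IP5, the most abundant of the 15, had overlapping groups.

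From a list of effectors and other partners of endosomal Rabs, 28 genes were tested. Of these, 5 stood higher and 7 lower without overlap, beside 19.1% and 31.8% of all genes, with a median log2 fold change of -0.04. SH3BP5, an exchange factor of RAB11, had 6.02 and 4.97 FPKM in Res, against 3.17 and 2.72 FPKM in Ctrl (log2 fold change 0.71 ± 0.19 SE, limma adjusted p = 0.210). HOOK1, a microtubule-linked adaptor, had 3.92 and 1.11 FPKM in Res, against 0.531 and 0.718 FPKM in Ctrl (log2 fold change 0.99 ± 0.41 SE, limma adjusted p = 0.321), with a log2 fold change of 0.38 without Res replicate 1 and 1.60 without Res replicate 2. VPS26A, the retromer subunit and the most abundant of the list, had overlapping groups. Of 15 tested effectors of Golgi Rabs, 3 stood higher and 4 lower without overlap, beside 19.1% and 31.8% of all genes, with a median log2 fold change of 0.12. OCRL, an inositol phosphatase that binds many Rabs, had 7.26 and 4.27 FPKM in Res, against 1.57 and 2.22 FPKM in Ctrl (log2 fold change 1.20 ± 0.28 SE, limma adjusted p = 0.176). The golgin GCC2 had 6.22 and 9.95 FPKM in Res, against 4.61 and 4.74 FPKM in Ctrl, and GOLGA4 had 13.7 and 50.2 FPKM in Res, against 10.95 and 17.6 FPKM in Ctrl, with overlap. Of 5 tested kinases and phosphatases of Rabs, 0 stood higher and 1 lower without overlap, beside 19.1% and 31.8% of all genes. That gene was STK3, at 3.18 and 2.84 FPKM in Res, against 3.54 and 3.87 FPKM in Ctrl, and TBK1, the most abundant, had overlapping groups. LRRK2, the kinase of RAB8A, RAB10 and RAB29, had 2.69 and 1.43 FPKM in Res, against 1.95 and 2.18 FPKM in Ctrl.

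The 2 Res libraries differed more from each other than the 2 Ctrl libraries did. The pooled SD between replicates over the 88 tested genes was 0.386 in Res and 0.211 in Ctrl on the log2 scale, beside 0.378 and 0.266 over all genes tested. Of the 88, 71.6% were higher in Res replicate 1 than in Res replicate 2, beside 66.1% of all genes. Against the Ctrl mean, the median of the 88 was -0.05 in Res replicate 1 and -0.27 in Res replicate 2 on the log2 scale, beside -0.01 and -0.16 over all genes. The 2 Res libraries stood on opposite sides of the Ctrl mean for 29 of the 88. The same share over all genes was not taken, so this count has no background beside it.

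**Figure D4:**
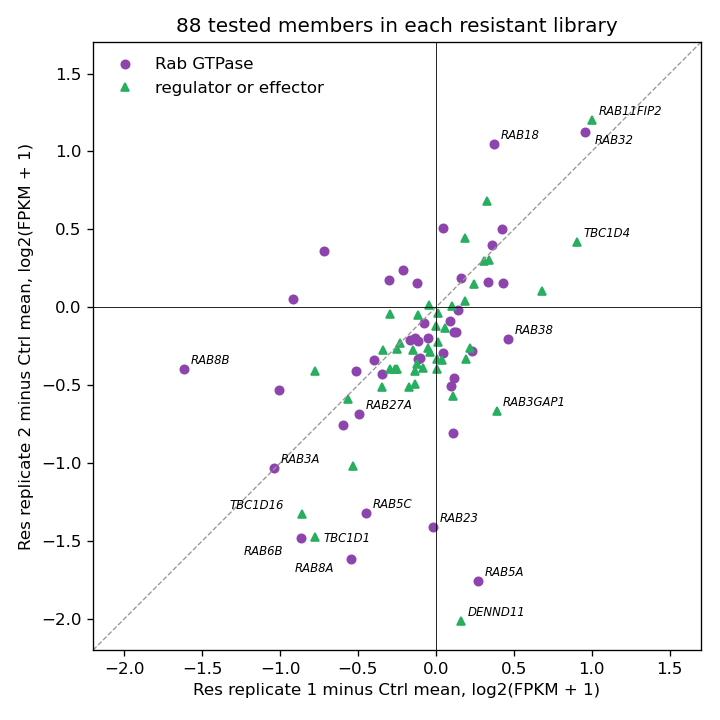
Difference from the Ctrl mean on the log2(FPKM + 1) scale in Res replicate 1 (horizontal) and Res replicate 2 (vertical), with 1 point for each of the 88 tested genes and the line of equal values dashed. RAB32, RAB11FIP2, RAB3A and RAB27A lie near the line, whereas RAB8B, RAB5A, RAB23 and DENND11 lie far from it.

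By level, the Rab GTPases were the most abundant class. Their median was 6.92 FPKM (mean over the 4 libraries, n = 48), against 2.74 FPKM for the 29 TBC-domain genes and 2.49 FPKM for the 12 exchange factors. Only RAB38, RAB7A and RAB32 exceeded 100 FPKM, and RAB13, RAB1B and RAB5IF followed at 61.0 to 70.2 FPKM. TBC1D4 and TBC1D7 led the TBC-domain genes at 34.5 and 31.4 FPKM, RAB3IL1 led the exchange factors at 5.80 FPKM and RABEPK the effectors at 11.4 FPKM.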

How the data were processed

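Each file as deposited holds FPKM, per the file headers, with 1 value per gene in each of 4 libraries (2 Res, 2 Ctrl). Per the labels' protocols, either poly(A) selection or ribosomal depletion preceded library construction, and libraries were strand-specific (dUTP). Per the submitters' processing notes the build was hg38. The aligner, FPKM program, annotation and use of strand were "not given in the sources used here". In these files no gene had its larger group mean below 0.501 FPKM, so genes low in both groups are absent, and a gene low in one group can have passed it, or the 1 FPKM filter, through the other. Whole reads could not be recovered from low values, so depth is unknown and no count model was used. Of 11650 IDs, 11575 matched a current symbol and 21 more GENCODE 29. One gene that matches these symbols is not reported here.

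Values were transformed as log2(FPKM + 1) and fitted in limma 3.58.1 (R 4.3.3, variance trend, two-sided) over the 10271 genes averaging 1 FPKM or more. This scale understates fold changes where values are low. With 2 libraries against 2, an exact two-sided permutation test reaches no p below 0.333. The fit was tested on simulated data. Genes were named by a rule: the melanosome Rabs, the 12 largest non-overlapping differences in each direction, the 2 most abundant of each role, and the most abundant and 2 largest of each list. Others were named after their values were seen. The genes and lists were chosen with earlier results of these data known. Alternatives covered pseudocount, filter, scaling, variance trend, replicate block and leaving out each library.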

Additional observations from a re-analysis of the deposited data

How the results depend on the processing

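No gene of the set passed the limma threshold under any of the 12 alternatives, with the smallest adjusted p at 0.0586 without Res replicate 1. The median log2 fold change of the set stayed below 0 in all of them. When single libraries were left out it ranged from -0.27 (without Res replicate 1) to -0.05 (without Res replicate 2). The same fits gave -0.16 and -0.01 over all genes tested. At an unadjusted limma p under 0.05, 3 genes stood higher and 7 lower with a minimum mean of 5 FPKM, where 42 were tested. The shares of all genes tested at that minimum were 5.81% and 11.2%. After rescaling to a common sum, 3 stood higher and 13 lower, beside 4.995% and 11.99% of all genes. Leaving out each library gave 2 to 7 higher and 4 to 22 lower, beside 3.23% to 10.8% and 3.27% to 24.6% of all genes. The 22 lower and the 24.6% both came without Res replicate 1. Each of these fits left 1 library in a group, so no conclusion is drawn from their counts. The replicate block gave 4 higher and 13 lower, beside 5.54% and 8.85% of all genes, with 0 past the adjusted threshold. Replicate numbers do not pair the samples by any label, and deviations of same-numbered libraries correlated at -0.07 across genes, so the pairing carries no weight. The sign turned for some named genes, most of them near 0 but also GOLGA4 at 0.88, which rested on Res replicate 2. With median-of-ratios scaling the log2 fold change was 0.030 for DENND10, 0.091 for TBC1D7, 0.036 for ARL6IP5 and 0.039 for VPS26A, and with quantile normalization 0.015 for DENND10 and 0.041 for TBC1D7. Leaving out single libraries gave ranges across 0 for RAB38 (-0.20 to 0.47), RAB7A (-0.017 to 0.14), DENND10 (-0.12 to 0.00064), TBC1D7 (-0.12 to 0.097), ARL6IP5 (-0.17 to 0.031), VPS26A (-0.42 to 0.29), GOLGA4 (-0.020 to 1.78) and TBK1 (-0.58 to 0.14). The cause of these shifts was not tested. With 2 libraries a group and unknown depth, differences of the size seen here were not resolved at the adjusted threshold.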
